A study of Mus musculus with 4 samples.

Results

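miR-132 and miR-212 are neighbouring microRNAs (miRNAs) that neurons make in response to activity. Their 4 mature products, miR-132-3p, miR-132-5p, miR-212-3p and miR-212-5p, were taken from the table of mature miRNAs by name, with both arms of each hairpin, and made up 4 of its 942 miRNAs. All 4 were read in every library, the lowest count being 8902 reads, and all 4 passed the filter on low counts.

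The study sequenced small RNA from the brain cortex of 4 mice of strain B6C3 at the age of 9 months, to ask which miRNAs differ in a mouse model of Alzheimer's disease (AD). 2 mice were wild type (WT1 and WT2) and 2 were APPswe/PS1ΔE9 double-transgenic mice (APP3 and APP4, the AD mice). These carry an amyloid precursor protein gene with the Swedish mutation and a presenilin 1 gene that lacks exon 9, and both transgenes are directed to neurons of the central nervous system. The mice were selected as sibling pairs, WT1 with APP4 (pair 1) and WT2 with APP3 (pair 2). Each library came from 1 mouse, so every p-value between genotypes rests on these 4 mice. A test of 2 single libraries, also used below, covers counting error and not the spread between mice.

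A miRNA hairpin is cut into a 5p and a 3p arm, and an arm that is loaded into an Argonaute protein represses messenger RNAs that pair with its seed, bases 2 to 8 from the 5′ end. Transcription of the miR-132 and miR-212 primary transcript is driven by CREB, a transcription factor switched on by synaptic activity and neurotrophins, and miR-132 is known for promoting dendrite growth, in part by repressing the GTPase-activating protein p250GAP. Lower miR-132 has been described in human AD brain.

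The mature sequences are shown because they tell which members read the same targets, with the seed in capitals (RefSeq, GRCm38.p6).
miR-132-3p: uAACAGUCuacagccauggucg
miR-212-3p: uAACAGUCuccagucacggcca
miR-132-5p: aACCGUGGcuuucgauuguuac
miR-212-5p: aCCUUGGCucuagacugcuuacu
The 3p arms shared the seed AACAGUC, which no other of 1679 mature mouse miRNAs in the RefSeq table carried. They were identical at 17 of 22 bases and differed by A10C, C14U, U17C, U20C and G22A, counted from the 5′ end of miR-132-3p, with the base of miR-132-3p first. The 5p arms had different seeds, ACCGUGG in miR-132-5p and CCUUGGC in miR-212-5p, and neither seed was found in another mature miRNA of the table. With base 1 of miR-212-5p set against base 2 of miR-132-5p, 14 of 21 bases were identical. No other mature miRNA lay within 2 mismatches of a member.

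The hairpins are shown because the arm ratios below compare products of 1 precursor. The 5p arm and then the 3p arm are in capitals (RefSeq, GRCm38.p6, plus strand of chromosome 11).
Mir212, chr11:75173388-75173478: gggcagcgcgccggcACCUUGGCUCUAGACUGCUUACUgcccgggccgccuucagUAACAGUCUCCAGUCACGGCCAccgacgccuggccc
Mir132, chr11:75173682-75173747: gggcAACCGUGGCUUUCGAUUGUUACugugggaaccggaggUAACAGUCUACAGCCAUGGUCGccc
Mir212 came first on the strand, and 203 bases separated the hairpins. Both lay within 1 intron (chr11:75172598-75173977) of 1700016P03Rik, a processed transcript on the same strand (GENCODE vM21, GRCm38), and no exon of another gene overlapped them. In the minimum free energy fold, 18 bases of each miR-132 arm were paired, against 18 bases of miR-212-5p and 16 bases of miR-212-3p.

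The libraries held between 19048747 and 26085776 miRNA reads. Values are given as reads per 1000000 miRNA reads (RPM). All 4 libraries differed from each other beyond counting error. The neuron list (miR-124-3p, miR-9-5p and miR-128-3p) summed to between 68744 and 77113 RPM, with all 3 read in every library. Of the lists for other cell types, the leukocyte list (miR-142-3p, miR-142-5p and miR-223-3p, 3 of 3 read in every library) was at 61.1 and 81.6 RPM in the WT mice and at 97.4 and 100.01 RPM in the AD mice. Its summed level, most of it miR-142-5p, therefore moved with genotype in the same direction as miR-132. miR-142-3p and miR-142-5p were each higher in both AD mice, but miR-223-3p overlapped, at 5.89 RPM in WT2 and 5.72 RPM in APP4. By RPM, 27% of the 623 miRNAs tested lay higher in both AD mice. The part of the leukocyte list in the results was not tested. The oligodendrocyte, red blood cell, endothelium, and epithelium and choroid plexus lists overlapped between genotypes in their summed RPM. In the epithelium and choroid plexus list of 5, all read in every library, 4 members stood apart in APP4. miR-200a-3p, miR-200b-3p, miR-429-3p and miR-141-3p were at 242, 210.4, 449.6 and 180.4 RPM in APP4 and between 1.69 and 28.5 RPM in the other mice. The other and most abundant member, miR-204-5p, was at 2900.2 RPM in APP4, below the 3472 to 4370.5 RPM of the other mice, and the part of these miRNAs in the results was not tested. The edgeR values and the read ratios of the members below are therefore also given without each library in turn. The other results are given with all libraries only. In bulk cortex, fewer cells of a type and less RNA per cell cannot be told apart.

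miR-132-3p was by far the most abundant member, and both arms of miR-132 exceeded the WT levels in APP3 and in APP4 when scaled to the miRNA total. miR-212-5p lay below the WT levels in APP3 and APP4, and miR-212-3p overlapped between genotypes. No difference of a member passed the test across the 4 mice.

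miR-132-3p was at 4618 RPM in WT1 and 4113 RPM in WT2, against 5358 RPM in APP3 and 5123 RPM in APP4. These came from between 90817 and 120460 reads and placed it between rank 33 and rank 39 of the miRNAs in a library. The level averaged 4366 ± 357 RPM in WT and 5240.2 ± 166 RPM in AD mice (SD, n = 2 each), a ratio of 1.20. Both AD mice lay above both WT mice.

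miR-132-5p, the lesser product of the same hairpin, was at 413 RPM in WT1 and 474 RPM in WT2, against 543 RPM in APP3 and 620.1 RPM in APP4. The groups did not overlap and averaged 443 ± 42.7 RPM in WT and 581 ± 54.8 RPM in AD mice (SD, n = 2 each), a ratio of 1.31. The difference between the WT mice was smaller than that between the genotype means.

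miR-212-3p, which carries the miR-132-3p seed, was at 600.5 RPM in WT1 and 765 RPM in WT2, against 734 RPM in APP3 and 856 RPM in APP4. WT2 lay above APP3, so the groups overlapped, and the means were 683 ± 117 RPM in WT and 795 ± 86.2 RPM in AD mice (SD, n = 2 each).

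miR-212-5p was at 502 RPM in WT1 and 703 RPM in WT2, against 473 RPM in APP3 and 467 RPM in APP4. The AD mice were nearly equal and lay below both WT mice, among which WT2 stood well above WT1. The means were 602 ± 142 RPM in WT and 470.1 ± 3.9 RPM in AD mice (SD, n = 2 each), a ratio of 0.781. The WT mice differed from each other by more than the genotype means did. miR-212-5p was the only member whose mean was lower in AD mice.

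**Figure D1:**
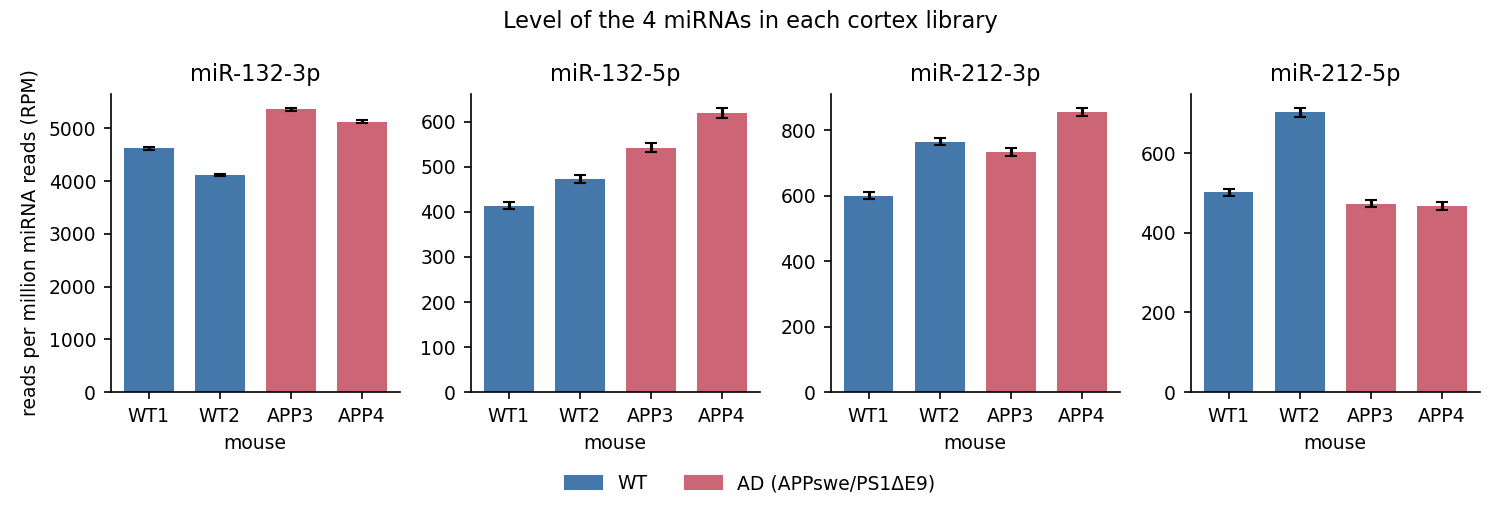
Bars give the level of each mature product (RPM, linear axes starting at 0 and scaled separately) in each of the 4 mice, blue for WT and red for AD, with 95% exact intervals for counting error. miR-132-3p and miR-132-5p were higher in both AD mice, miR-212-3p overlapped, and miR-212-5p was lower in APP3 and APP4, with WT2 highest at 703 RPM.

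Groups that did not overlap were also found among the other miRNAs. Of 623 miRNAs tested, 27% had both AD mice above both WT mice in RPM and 8.99% had both below. With 2 mice per genotype the two-sided exact permutation test cannot go below p = 0.333, which is what miR-132-3p, miR-132-5p and miR-212-5p each gave, and miR-212-3p gave an exact permutation p of 0.667.

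Scaling by the trimmed mean of M values (TMM), which corrects for a shift that most miRNAs share, changed the picture for miR-132-3p. It then stood at 5019.8 RPM in WT1 and 4157 RPM in WT2, against 5348 RPM in APP3 and 4671 RPM in APP4, with WT1 above APP4. miR-132-5p still had both AD mice above both WT mice, as did 14.9% of the miRNAs tested. miR-212-5p still had both AD mice below, as did 19.1%. miR-212-3p overlapped on this scale too. Against the scale of the miRNA total, TMM lowered the AD mice relative to the WT mice by a median of 0.14 (log2). The shift lay mostly in pair 1, at -0.25 for APP4 against WT1, and was -0.02 for APP3 against WT2.

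In the edgeR quasi-likelihood test across the 4 mice, 0% of the 623 miRNAs tested passed a Benjamini-Hochberg adjusted p of 0.05, and none of the members did. An unadjusted p under 0.05 was given to 36 miRNAs, none of them a member. DESeq2, which tested all 942 miRNAs, also called 0 and gave an unadjusted p under 0.05 to 28, among them miR-212-5p. miR-212-5p was also under that unadjusted limit in edgeR with the sibling pair as a block and without WT1, with edgeR adjusted p = 0.634 and 0.812. The log2 fold change (AD over WT) was 0.13 ± 0.19 (SE) for miR-132-3p and 0.25 ± 0.18 for miR-132-5p, with edgeR adjusted p = 0.967 and 0.929. It was 0.08 ± 0.19 for miR-212-3p and -0.48 ± 0.21 for miR-212-5p, with edgeR adjusted p = 0.972 and 0.768. Across all tested miRNAs the median log2 fold change was -0.02. Of the 252 miRNAs that averaged 50 RPM or more, 54.8% differed by more than miR-132-3p in either direction, 27.8% by more than miR-132-5p, 66.3% by more than miR-212-3p and 10.3% by more than miR-212-5p.

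Single libraries decided the size of several of these values. Without WT2 the edgeR log2 fold change of miR-212-5p was -0.25, and without WT1 it was -0.67. For miR-132-3p it was 0.02 without APP3 and 0.03 without WT2, against 0.26 without WT1 and 0.21 without APP4. For miR-212-3p it was -0.04 without WT1 and 0.25 without WT2. miR-132-5p moved least, between 0.20 and 0.34.

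Because miR-132-3p and miR-212-3p read the same seed matches, their reads were added. The sum was 5218 RPM in WT1 and 4879 RPM in WT2, against 6091 RPM in APP3 and 5979 RPM in APP4, and both AD mice lay above both WT mice by RPM but overlapped with them after TMM scaling. Both arms of miR-212 together were at 1102, 1468, 1207 and 1323 RPM in WT1, WT2, APP3 and APP4. These overlapped, and the means of 1285 ± 258 RPM in WT and 1265 ± 82.3 RPM in AD mice (SD, n = 2 each) differed by less than the spread between the WT mice.

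The study compared each AD mouse with its WT sibling by counting statistics. Here Fisher's exact test was run on the read counts, which compares 2 libraries and not the genotypes, and a miRNA was called at a false discovery rate (FDR) under 0.05 and a difference of at least 1.5-fold. In pair 1, 11.6% of 899 miRNAs were called, and 1 member was among them. miR-132-5p was higher in APP4 than in WT1 by a log2 difference of 0.59 (FDR 1.57e-202, Fisher's exact test), at the fold limit. The FDR scales with the number of reads, and with each library scaled to 1000000 reads it was 1.38e-09 (Fisher's exact test), still called among 32 miRNAs. miR-212-3p was higher by 0.51 and miR-132-3p by 0.15, and miR-212-5p differed by -0.10. With TMM library sizes the pair 1 difference was 0.33 for miR-132-5p, below the limit, and -0.10 for miR-132-3p, in the opposite direction. The study's own list for pair 1 also holds miR-132-5p as higher, at 0.59, and its list for the other pair does not. It then measured listed miRNAs, miR-132-5p among them, by RT-PCR in more mice of the same age. For miRNAs listed in 1 pair, its text names 2 whose RT-PCR trend matched sequencing, and miR-132-5p is neither.

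In pair 2, 6.81% of 896 miRNAs were called and none of the members. miR-132-3p was higher in APP3 than in WT2 by 0.38 on the log2 scale and miR-132-5p by 0.20. miR-212-5p differed by -0.57, just under the fold limit, and was called with TMM library sizes at -0.59. miR-212-3p differed by -0.06 in pair 2, against 0.51 in pair 1.

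**Figure D2:**
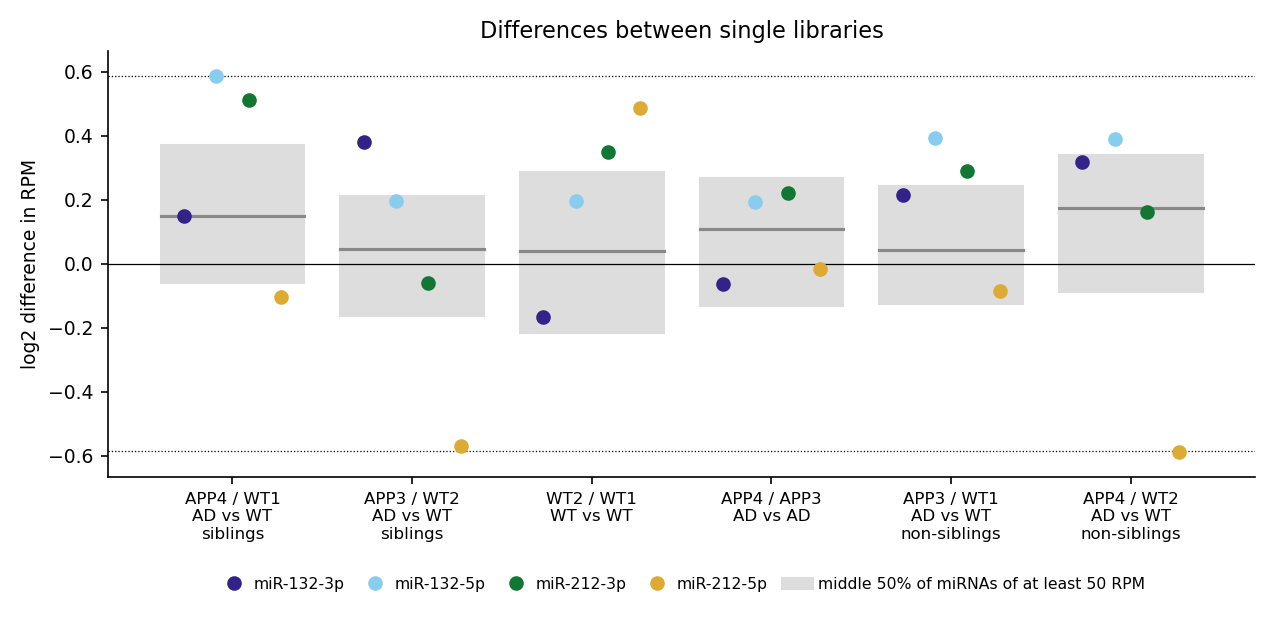
Log2 difference in RPM of each member (points) in all 6 pairs of libraries, with grey boxes for the middle 50% of miRNAs averaging 50 RPM or more, a grey line at their median and dotted lines at the 1.5-fold limit. miR-132-5p reached the upper limit in APP4 over WT1 at 0.59, miR-212-5p lay at -0.57 in APP3 over WT2 and past the lower limit at -0.59 in APP4 over WT2, and it also differed by 0.49 between the WT mice.

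Mice of 1 genotype differed by amounts of the same order. Between the WT mice, 10.1% of 879 miRNAs were called, and WT2 exceeded WT1 by 0.49 (log2) in miR-212-5p, 0.35 in miR-212-3p and 0.20 in miR-132-5p, and differed by -0.17 in miR-132-3p. Between the AD mice, 8.05% of 907 miRNAs were called. APP4 differed from APP3 by 0.22 in miR-212-3p, 0.19 in miR-132-5p, -0.06 in miR-132-3p and -0.02 in miR-212-5p. No member was called within a genotype. Of the AD and WT mice that were not siblings, APP4 differed from WT2 by -0.59 in miR-212-5p, which was called (FDR 1.06e-211, Fisher's exact test), and APP3 from WT1 by -0.09, which was not.

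The ratio of the arms needs no library scaling, since both arms were counted in the same library. miR-212 made more 3p relative to 5p product in both AD mice. The 3p arm held 54.5% of miR-212 reads in WT1 (95% exact binomial interval 53.9 to 55.0%) and 52.1% in WT2 (51.6 to 52.7%). It held 60.8% in APP3 (60.2 to 61.4%) and 64.7% in APP4 (64.1 to 65.3%). Such intervals cover counting error only, since copies made by PCR are not independent molecules. On the log2 scale the 3p over 5p ratio averaged 0.19 ± 0.096 in WT and 0.75 ± 0.17 in AD mice (SD, n = 2 each), a difference of 0.56. That exceeded the differences within WT (-0.14, WT2 minus WT1) and within AD mice (0.24, APP4 minus APP3). The exact permutation p was 0.333, the smallest that 2 against 2 allows.

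Both AD mice lay above both WT mice in the 3p over 5p ratio of 16% of the 144 hairpins with at least 50 reads on average on both arms. In another 15 of the 144 both AD mice lay below both WT mice. A limma fit over those hairpins, chosen after the ratios were seen, gave miR-212 a log2 difference of 0.56 ± 0.29 (SE) with a limma adjusted p of 0.632, or 0.422 with the sibling pair as a block. By size miR-212 held place 18 of 144, and the median size was 0.19. A limma adjusted p under 0.05 was given to 3 of the 144 hairpins, and miR-212 was not among them. In 27 of the 144 hairpins, 18.8%, the genotype difference exceeded both differences within a genotype.

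In the miR-132 hairpin the genotypes overlapped. Its 3p arm held 91.8% of reads in WT1 and 89.7% in WT2, against 90.8% in APP3 and 89.2% in APP4. The log2 ratio differed by -0.13 between genotypes (exact permutation p = 0.667), turning to 0.06 without WT1. A test of miR-212 against miR-132 in this respect was not made.

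**Figure D3:**
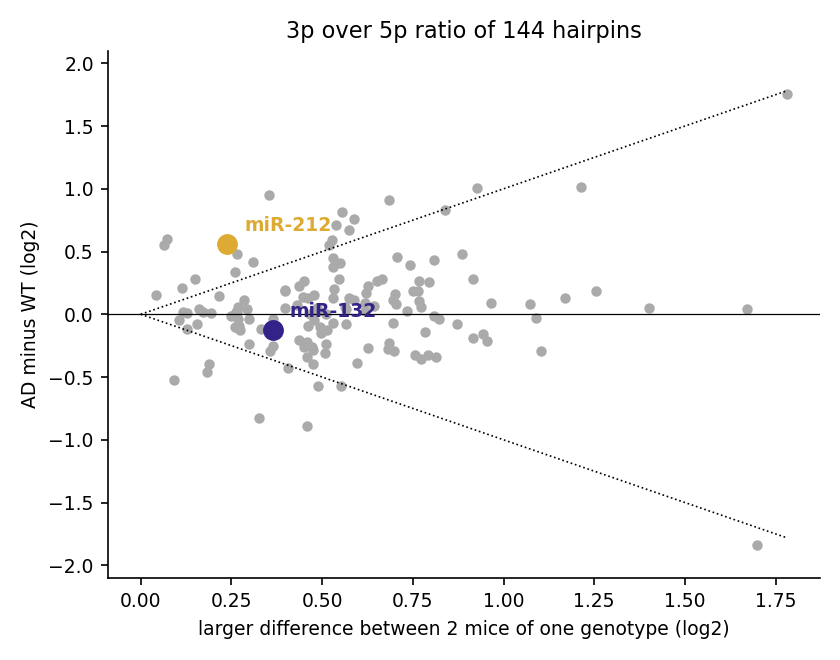
Each point is 1 of 144 hairpins, with the genotype difference in the log2 3p over 5p ratio (AD minus WT, vertical axis) against the larger of the differences between mice of 1 genotype (log2, horizontal axis). Dotted lines mark equal sizes, and miR-212 lay above the upper line at 0.56 while miR-132 lay between the lines at -0.13.

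The same arms were also compared between the hairpins. miR-132-3p reads were 7.69 times those of miR-212-3p in WT1 and 5.37 times in WT2, against 7.30 times in APP3 and 5.99 times in APP4. These overlapped between genotypes, with a log2 difference of 0.04 (exact permutation p = 1). miR-132-5p reads were 0.823 times those of miR-212-5p in WT1 and 0.674 times in WT2, against 1.15 times in APP3 and 1.33 times in APP4. miR-212-5p was thus the more abundant 5p arm in both WT mice and miR-132-5p in both AD mice. The log2 difference of 0.73 exceeded those within WT (-0.29, WT2 minus WT1) and within AD mice (0.21, APP4 minus APP3), and its exact permutation p was 0.333. This ratio was added after the levels were seen. Since miR-132-5p was higher and miR-212-5p lower in both AD mice, its separation and permutation p were fixed beforehand and add no evidence. How often other pairs of miRNAs differ as much was not tested.

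**Figure D4:**
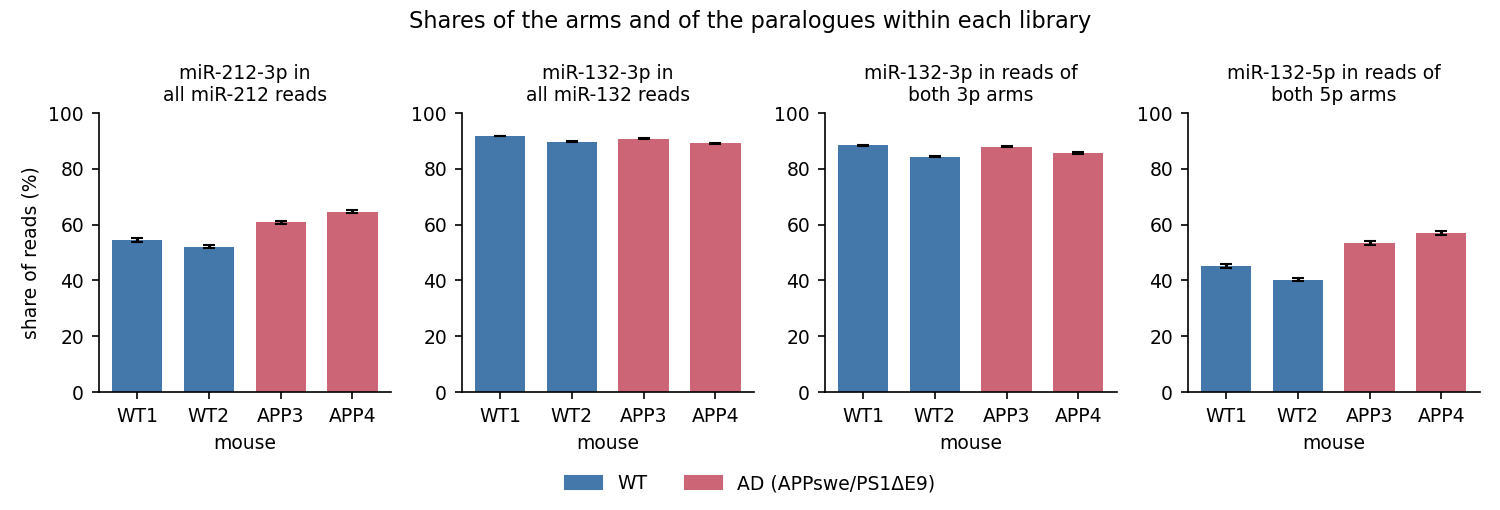
Bars give, for each mouse, the share of reads in percent of miR-212-3p and miR-132-3p in their own hairpin's reads and of miR-132 in the reads of both 3p and of both 5p arms, with 95% exact binomial intervals for counting error only. The miR-212-3p share was at 52.1% and 54.5% in WT and at 60.8% and 64.7% in AD mice, and the miR-132-5p share at 40.3% and 45.2% in WT and at 53.4% and 57.0% in AD mice.

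The other miRNAs of neuronal activity and synapses were taken as a list of 15, all of them read and tested. No miRNA of the list passed the adjusted edgeR test, and its median log2 fold change was 0.01, against -0.02 over all 623. Both AD mice lay above both WT mice in RPM for 5 of 15, and below for 0 of 15, against 27% and 8.99% of all miRNAs tested. miR-138-5p, which limits dendritic spine size, was at 1666 RPM in WT1 and 2447 RPM in WT2, against 3948 RPM in APP3 and 3174 RPM in APP4, with an edgeR log2 fold change of 0.67 ± 0.24 (SE, adjusted p = 0.768). It was the 1 list member of 15 called in pair 1, at 0.93, and in pair 2, at 0.69, where 11.6% and 6.81% of all miRNAs were called. Among the miRNAs the study listed in both pairs, its text names miR-138-5p as the exception whose RT-PCR change did not match sequencing. Its comparison of all sequenced mice together, however, lists an RT-PCR change of miR-138-5p in the same direction as sequencing, but smaller. miR-134-5p, another regulator of spine size, was at 158, 175, 137 and 167 RPM in the same order, with a log2 fold change of -0.27 ± 0.20 (edgeR adjusted p = 0.939). miR-379-5p, from the same large miRNA cluster as miR-134-5p, was at 359.8, 315, 269 and 323 RPM, with a log2 fold change of -0.33 ± 0.20 (edgeR adjusted p = 0.929).

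The 5 miRNAs whose pattern over the 4 libraries was most like that of miR-132-3p were miR-433-3p, miR-338-5p, let-7d-3p, miR-421-3p and miR-30c-1-3p. Likeness was the root mean square distance between centred log2 RPM, which was between 0.046 and 0.062 for these. Its median was 0.20 over the miRNAs averaging 50 RPM or more, with the members left out. With 4 libraries and a shared scaling, this is a description. The co-transcribed members were farther off, with miR-132-5p at 0.17 (place 88), miR-212-3p at 0.21 (place 141) and miR-212-5p at 0.38 (place 224). miR-212-5p was the member least like miR-132-3p.

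**Figure D5:**
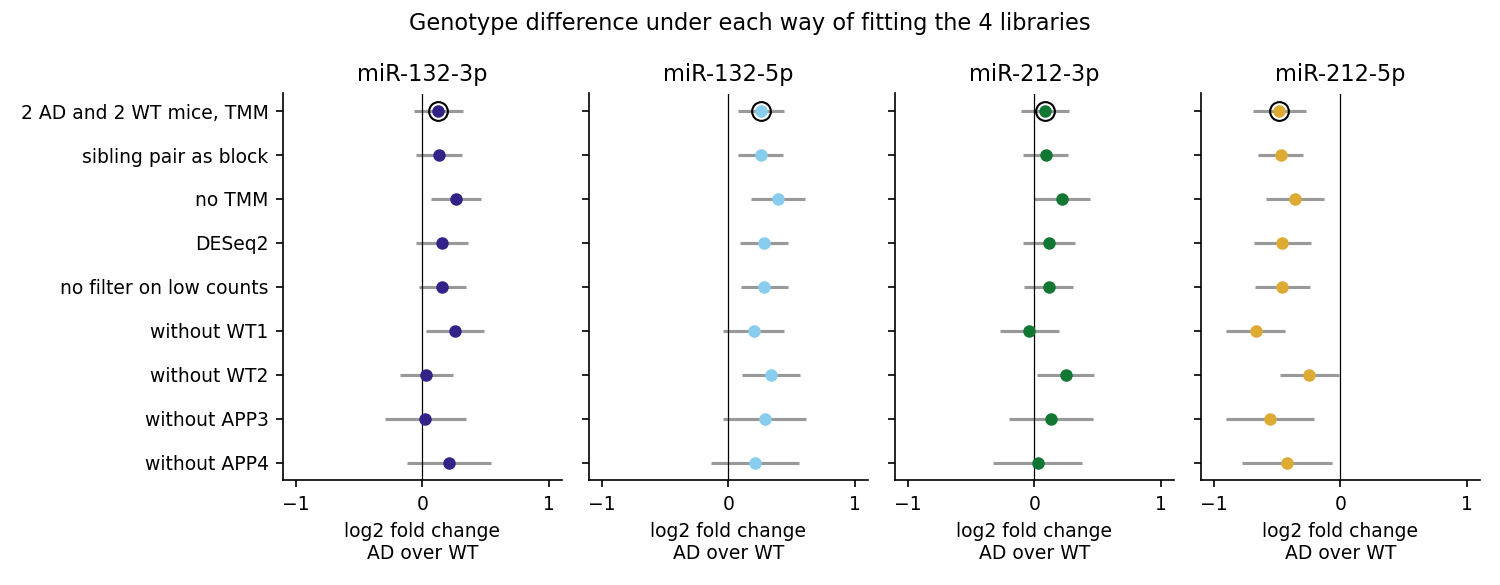
Log2 fold change (AD over WT) of each member across the mice with its standard error (grey bars), for the TMM-scaled edgeR fit of 4 mice (ringed) and for 8 alternatives. In all 9 fits drawn miR-212-5p lay below 0 and miR-132-5p and miR-132-3p above 0, and miR-212-3p crossed to -0.04 without WT1.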

How the data were processed

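Total RNA from the cortex of 4 mice was made into small RNA libraries (TruSeq) and sequenced on an Illumina instrument. The authors kept reads of 18 to 35 bases and deposited a table of read counts per mature miRNA, counted against miRBase 19. The study's methods give at most 2 mismatches and 2 changed bases at each end for matching small RNA databases, and also say that miRBase matches had no mismatch, so the rule behind these counts is not certain. The authors also deposited RPM per clean reads, which served here only as the alternative library size. The submitters' processing notes name CASAVA 1.8 and mm9, while the study's methods name GRCm38, and the table itself holds no coordinates. The values here start from the counts, divided by the miRNA total of each library (19048747 to 26085776 reads).

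The AD and WT genotypes were tested in edgeR 4.0.16 (TMM, filterByExpr, quasi-likelihood test, Benjamini-Hochberg adjustment) in R 4.3.3, and single values with exact two-sided permutation tests (scipy 1.17.1). Libraries were compared with Fisher's exact test, called at FDR under 0.05 and at least 1.5-fold, with 0.5 reads added to each count for fold changes. Arm ratios were fitted with limma 3.58.1, and hairpins folded with RNAfold 2.7.2. Alternatives were DESeq2 1.42.0, no TMM, no filter, the sibling pair as a block, each mouse left out, and other limits and library sizes. Siblings are paired by the study's methods, and their deviations from the genotype means correlated with r = 0.235 over 252 miRNAs. Scripts were tested on simulated data.

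The text names the 4 members, the 3 miRNAs with the largest edgeR change on the activity list and any called in both pairs, and the 5 most like miR-132-3p. Other miRNAs with a member's seed would have been named. The members of the epithelium and choroid plexus list were named after their values were seen. The members and lists were chosen with earlier results of these data known.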

Additional observations from a re-analysis of the deposited data

Results flagged for a closer look

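The differences of miR-212-3p had opposite signs in the sibling pairs, but that between APP3 and WT2 was small. miR-212-3p was higher by 0.51 (log2) in APP4 than in WT1, and differed by -0.061 between APP3 and WT2. With TMM library sizes these values were 0.26 and -0.08. The difference of -0.061 was smaller in size than that between the WT mice (0.35) and that between the AD mice (0.22). Its p was 0.13 with Bonferroni adjustment (Fisher's exact test). Whether the pairs differ was not tested, since each pair holds 1 mouse of each genotype.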

How the results depend on the processing

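Of 134 values recomputed under an alternative, 111 kept their direction and their side of the threshold. For counts of miRNAs this meant staying within 1.5 times. For ratios, which had no threshold, it meant a shift under the larger SD of the genotypes. Of the others, 6 reversed, 3 fell below the threshold, 2 passed it, and 12 counts moved by over 1.5 times. Many of the 111 could hardly change, since stricter limits left fold changes as they were and limma returned the same ratio difference. In the edgeR fits the log2 fold change ranged with each mouse left out from -0.041 to 0.25 for miR-212-3p, and the number of miRNAs called ranged from 0 to 21 (3 without WT1, 21 without APP3 and 5 without APP4), against 0 with all mice. With a block for the sibling pair, edgeR called 2 miRNAs and no member. The member values with each mouse left out assume that a lone mouse varies like the others.

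With TMM library sizes the pair 1 difference was -0.10 for miR-132-3p and 0.33 for miR-132-5p. That of miR-132-5p was 0.58 with clean reads as the library size and 0.59 under a 2-fold limit. In each of these settings miR-132-5p was no longer called, while miR-132-3p had not been called in pair 1 before. The pair 2 difference of miR-212-5p was called at -0.59 both with TMM library sizes and with clean reads. The number of miRNAs called in pair 1 was 32 after scaling to 1000000 reads, 53 at 10 RPM or more, 65 with Bonferroni adjustment and 50 under a 2-fold limit, and in pair 2 it was 23, 30, 34 and 23.

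With each mouse left out, the log2 difference in the 3p over 5p ratio ranged from -0.31 to 0.057 for miR-132 (0.057 without WT1, 0.0035 without APP4) and from 0.44 to 0.68 for miR-212. That of miR-132-3p over miR-212-3p ranged from -0.22 to 0.30 (-0.22 without WT2, -0.10 without APP3), and that of miR-132-5p over miR-212-5p from 0.58 to 0.87. The cause of these changes was not tested. Each member had at least 8902 reads in every library, and between the AD mice miR-212-5p differed by less than its counting error.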
